A study of Mus musculus with 14 samples.

Results

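The genes described here are 7 markers of cortical parvalbumin interneurons: Pvalb, Syt2, Pthlh, Kcnc1, Kcns3, Tac1 and Gpr149. They were matched by symbol to the 53465 gene identifiers of the raw count tables (GENCODE names, GRCm38), and each was found once. RNA came from bulk tissue of the anterior cingulate cortex, which lies along the midline of the frontal lobe. The 14 libraries represent a pair of inbred mouse strains, AKR/J (AKR here) and C57BL/6NJ (B6N here). Each strain had 4 libraries from naive mice and 3 from mice in the OFL condition, observational fear conditioning, in which an animal witnesses shocks given to a conspecific. The labels name no transgene, drug or age for any group, and do not say whether a library held 1 animal or a pool. All p-values therefore measure the spread between libraries, which may be technical.

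Parvalbumin interneurons are inhibitory neurons that release GABA onto the cell bodies and axon initial segments of their targets and can fire at very high rates. They are commonly called fast-spiking basket and chandelier cells. Their rapid firing depends on potassium channels that repolarise the membrane quickly, and their terminals use a fast calcium sensor for transmitter release. In frontal cortex they are known for their control of the timing of excitatory neurons, and many are wrapped in an extracellular coat called the perineuronal net. The title of the series names the transcription factor ARNT2 together with another inhibitory class, the somatostatin interneurons.

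Naive libraries held 19073921 to 25780227 counts each, and OFL libraries 13487311 to 14526253. Excitatory cortical markers defined the tissue, with Slc17a7, the vesicular glutamate transporter of cortical excitatory neurons, at 693.9 to 1463 CPM (counts scaled to a common library size). Of the markers of striatal projection neurons, Isl1 and Six3 were at or near 0 in all groups (at most 0.0728 and 0.135 CPM in any library). Naive and OFL libraries were deposited as separate tables and differed in RNA classes. Genes of the histone clusters took 0.00462% (AKR) and 0.00619% (B6N) of counts in naive and 0.0363% and 0.0362% in OFL libraries. Genes of the mitochondrial genome took 1.68% and 1.69% in naive but 0.765% and 0.814% in OFL libraries. Condition and deposited set cannot be told apart. One library, B6N naive replicate 2, stood apart in the markers, and where leaving it out changed a call of a member or a count of a gene list, that is stated. Its summed CPM of 6 oligodendrocyte markers was 2071, against 1448 to 1576 in the other 3 libraries of that group.

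The members fall into 4 roles. Pvalb (ENSMUSG00000005716, chr15:78191114-78206400, minus strand) encodes parvalbumin, a calcium-binding protein that buffers calcium in the cell. Syt2 (ENSMUSG00000026452, chr1:134646677-134762593, plus strand) encodes synaptotagmin 2, a calcium sensor for fast transmitter release. Kcnc1 (ENSMUSG00000058975, chr7:46396497-46438704, plus strand) encodes the channel Kv3.1, which ends action potentials quickly. Kcns3 (ENSMUSG00000043673, chr12:11090202-11151056, minus strand) encodes Kv9.3, a subunit that forms no channel alone and modifies channels of the Kv2 family. The secreted peptides come from Pthlh (ENSMUSG00000048776, chr6:147252101-147264183, minus strand), the parathyroid hormone-related protein, and Tac1 (ENSMUSG00000061762, chr6:7554879-7565834, plus strand), the precursor of substance P. Gpr149 (ENSMUSG00000043441, chr3:62529077-62605140, minus strand) encodes an orphan G protein-coupled receptor. All 7 are protein-coding. No exonic base of a member lies under an exon of another gene on either strand, so unstranded counting does not mix them with a neighbour. Stretches of 31 bases shared with other genes made up 0.98% of the Kcnc1 exons, 0.284% of Gpr149 and 0.184% of Syt2, and none of the other 4 members.

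The 250 bases before the annotated RefSeq start site are shown for 3 members whose data differ in kind. Pvalb and Kcnc1 had higher means in AKR than in B6N libraries in both conditions, although the naive libraries of Pvalb overlapped. Syt2 spread most between the libraries of the B6N groups. The sequences are those of GRCm38.p6, read 5′ to 3′ in the direction of transcription: Pvalb from chr15:78206401-78206650 (minus strand), Kcnc1 from chr7:46396218-46396467 (plus strand) and Syt2 from chr1:134646362-134646611 (plus strand). Both strands were searched for 4 words, and capitals mark a match to a word or to its reverse complement. The word TCGTG is bound by NPAS4 paired with ARNT or ARNT2, the word ACGTG is the core of the hypoxia response element, and the word CACGTG is the palindromic E-box. The word AAGGTCA is the core site of the estrogen-related receptors, of which Esrrg is found in fast-spiking cells.
Pvalb: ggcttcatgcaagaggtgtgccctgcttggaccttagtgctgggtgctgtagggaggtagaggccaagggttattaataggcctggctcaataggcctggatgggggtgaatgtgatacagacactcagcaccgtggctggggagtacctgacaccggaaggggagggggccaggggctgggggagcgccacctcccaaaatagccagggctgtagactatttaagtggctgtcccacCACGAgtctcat
Kcnc1: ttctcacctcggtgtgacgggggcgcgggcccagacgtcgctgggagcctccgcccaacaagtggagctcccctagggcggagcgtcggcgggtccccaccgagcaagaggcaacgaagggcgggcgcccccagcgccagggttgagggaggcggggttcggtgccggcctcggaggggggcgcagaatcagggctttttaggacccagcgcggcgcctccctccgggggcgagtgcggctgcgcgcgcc
Syt2: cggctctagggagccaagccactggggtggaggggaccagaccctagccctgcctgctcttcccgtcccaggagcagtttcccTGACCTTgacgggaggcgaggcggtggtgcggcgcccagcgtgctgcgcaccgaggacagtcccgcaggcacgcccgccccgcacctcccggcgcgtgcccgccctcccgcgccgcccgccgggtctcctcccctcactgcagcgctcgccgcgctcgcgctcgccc
In the Pvalb window the single match, CACGA, the reverse complement of TCGTG, began at position -12 from the start site. TCGTG on either strand occurred in 13.3% of 32851 upstream windows of the same length. In Syt2 the match was TGACCTT, the reverse complement of AAGGTCA, at position -167, and 4.08% of windows held that word. None of the 4 words occurred in the Kcnc1 window. Upstream of Tac1, CACGTG, which contains ACGTG and is found in 6.02% of windows, began at position -61. ACGTG, alone or within the E-box, was found in 16.6% of windows. The windows of Pthlh and Kcns3, and those at the alternative start sites of Pvalb, Syt2 and Kcns3, held none of the words. No sequence of Gpr149 was searched. A match is a run of letters and was not tested for binding.

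Levels are given in CPM scaled by TMM factors over all 14 libraries, and levels of different genes are compared only after division by exonic length. Per kilobase of exon, Pvalb was the most abundant member, at 40.6 ± 2.87 CPM per kb (SD) over 4 AKR naive libraries. Kcnc1 followed at 28.5 ± 0.655 CPM per kb and Syt2 at 6.55 ± 0.636 CPM per kb in the same libraries. Tac1 (3.78 ± 0.217 CPM per kb) and Kcns3 (3.24 ± 0.432 CPM per kb) overlapped in range, while Pthlh was at 1.93 ± 0.414 and Gpr149 at 0.193 ± 0.0276 CPM per kb. The same order held in B6N naive libraries, again with overlap between Tac1 and Kcns3. After OFL, Kcns3 stood above Tac1 in both strains, at 3.46 ± 0.233 against 2.90 ± 0.253 CPM per kb in AKR, where the 3 libraries of each did not overlap. In B6N OFL libraries these 2 genes again overlapped (3.06 ± 0.340 and 2.80 ± 0.568 CPM per kb). All other neighbours in the order had separate ranges in all 4 groups.

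Pvalb was 45.8, 43.1, 38.6 and 41.7 CPM in AKR naive replicates 1 to 4. In B6N naive replicates 1 to 4 it was 30.2, 44.0, 28.8 and 32.3 CPM. Every AKR value exceeded 3 of the 4 B6N values, and B6N replicate 2 lay within the AKR range. After OFL, Pvalb was 37.2, 38.5 and 30.8 CPM in AKR and 27.0, 23.5 and 25.4 CPM in B6N libraries, and the strains did not overlap. Group means were 42.3 ± 2.99 and 33.8 ± 6.93 CPM in naive AKR and B6N, and 35.5 ± 4.14 and 25.3 ± 1.76 CPM after OFL (SD over 4 or 3 libraries).

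Kcnc1 had the smallest spread of the members in naive libraries. AKR naive libraries gave 270.6, 272, 261 and 276 CPM, and B6N naive libraries gave 228, 246, 222 and 241 CPM. Every AKR naive library was above every B6N naive library. After OFL the values were 185, 166 and 178 CPM in AKR and 164, 136 and 131 CPM in B6N libraries, again without overlap between strains and with all 6 below the naive libraries.

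Syt2 was the member with the widest spread in the B6N groups. It was 46.7, 45.2, 53.3 and 55.1 CPM in AKR naive and 36.1, 64.7, 35.3 and 38.8 CPM in B6N naive replicates 1 to 4, where replicate 2 exceeded all 7 other naive libraries. After OFL it spread from 39.9 to 66.6 CPM in AKR and from 36.7 to 67 CPM in B6N libraries, so that the strains and the conditions overlapped. The coefficient of variation within a group reached 32.2% in B6N naive libraries, where counting error alone gives 3.17%.

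The peptide genes were lower in all OFL than in all naive libraries. Pthlh was 2.85, 2.50, 3.11 and 4.07 CPM in AKR naive and 2.12, 2.74, 2.37 and 2.23 CPM in B6N naive libraries, and the ranges overlapped between 2.50 and 2.74 CPM. After OFL Pthlh was 0.890, 0.627 and 0.801 CPM in AKR and 1.37, 1.19 and 0.920 CPM in B6N libraries, and here every B6N library was above every AKR library. These OFL values rest on 9 to 12 reads in AKR and 13 to 20 reads in B6N libraries, where counting error alone gives a coefficient of variation of 30.6% and 24.5%. Tac1 ranged from 12.1 to 13.6 CPM in AKR naive and from 12.6 to 14 CPM in B6N naive libraries. It was 9.71, 10.8 and 9.10 CPM in AKR OFL and 7.54, 9.66 and 11.4 CPM in B6N OFL libraries. The strains overlapped in both conditions.

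Kcns3 stayed between 8.66 and 12.5 CPM in all 14 libraries, and all 4 groups overlapped. Gpr149 was the least abundant, from 0.348 to 0.890 CPM, on 15 to 21 reads per library in naive and 5 to 10 in OFL mice. Counting error alone gives Gpr149 a coefficient of variation of 23.7% to 36.9%, so that a strain difference of the size seen for Pvalb was not detectable.

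**Figure D1:**
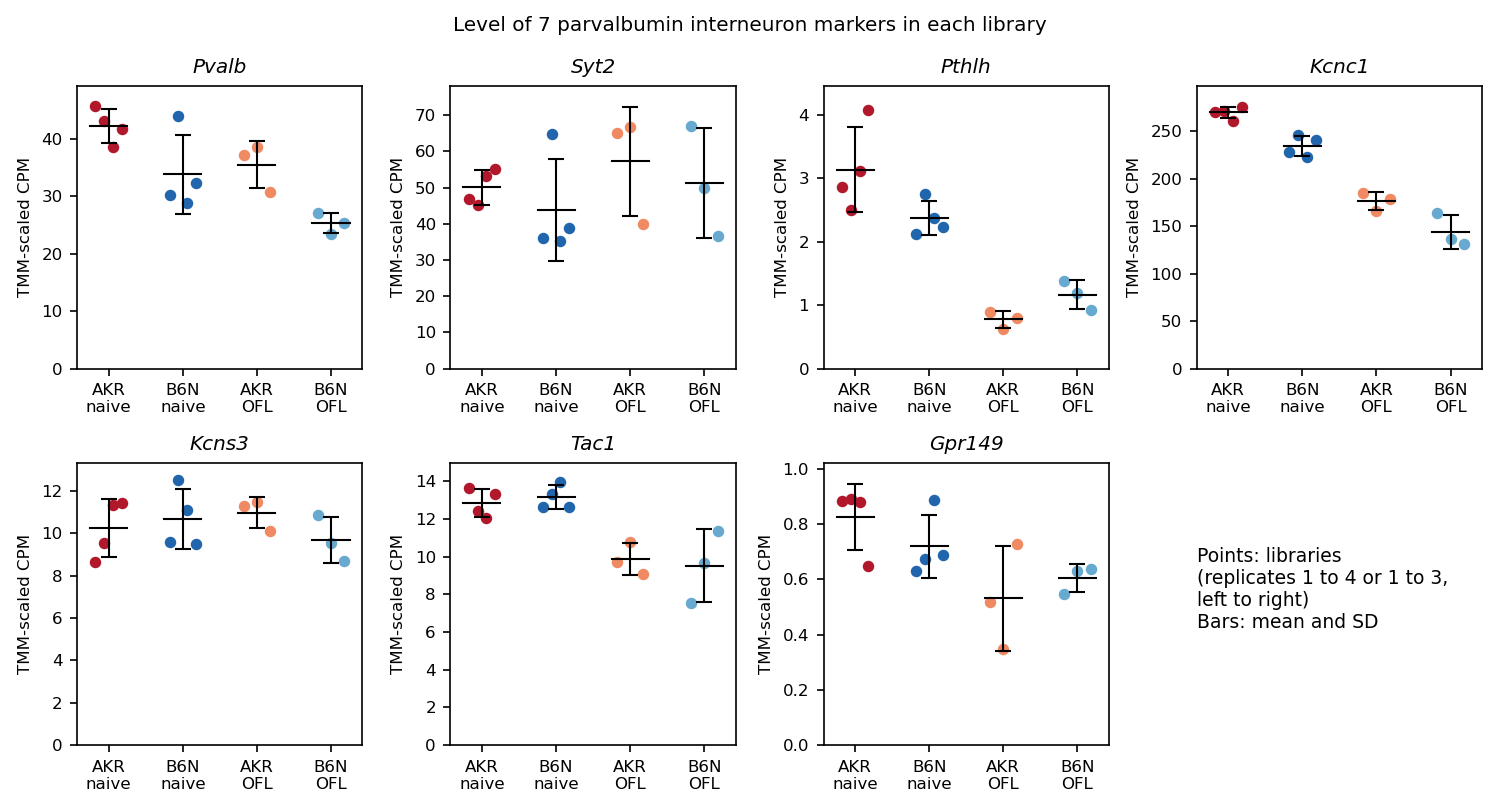
TMM-scaled CPM (vertical axes, linear from 0) of the 7 markers in each library, by strain and condition, with bars for the mean and SD over 4 naive or 3 OFL libraries. AKR libraries lie above B6N libraries for Kcnc1 in both conditions and for Pvalb after OFL, and the highest naive Syt2 value is B6N replicate 2 at 64.7 CPM.

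The first comparison asked which markers differ between strains before conditioning. Pvalb was 1.25-fold higher in AKR than in B6N naive libraries (log2 difference 0.32, SE 0.096, adjusted p = 0.0133, edgeR quasi-likelihood test with Benjamini-Hochberg adjustment over 17645 genes). Kcnc1 was 1.15-fold higher (log2 difference 0.20, SE 0.036, adjusted p = 0.000246). In whole tissue, fewer cells of a type and less RNA per cell cannot be told apart. These were 2 of the 7 members, both higher in AKR. Of all genes tested, 37.8% were called, 18.3% higher and 19.5% lower, so 2 of 7 is not above the background share. The median log2 difference was 0.20 over the members and 0.0061 over all genes. Libraries did not overlap for 1 member, Kcnc1, against 34.7% of all genes (16.8% higher and 17.9% lower in AKR).

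The other 5 members were not called. Pthlh missed the threshold with a log2 difference of 0.41 (95% interval 0.075 to 0.75, adjusted p = 0.0512). For Syt2 it was 0.20 (-0.097 to 0.49), for Kcns3 -0.054 (-0.27 to 0.16), for Tac1 -0.029 (-0.17 to 0.11) and for Gpr149 0.21 (-0.26 to 0.67). The intervals of Tac1 and Kcns3 do not reach the difference estimated for Pvalb, while those of Syt2, Pthlh and Gpr149 do.

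Several calls turned on single libraries. Without B6N naive replicate 2, the Pvalb difference was 0.47 (adjusted p = 4.0e-06), Syt2 was 0.45 (adjusted p = 2.3e-05), Pthlh was 0.49 (adjusted p = 0.0307) and 4 members were called. The Pvalb call was lost without B6N naive replicate 1 (0.27, adjusted p = 0.0514) or replicate 3 (0.26, adjusted p = 0.0505), which left Kcnc1 as 1 called member, and with DESeq2 (0.32, adjusted p = 0.081). Pthlh was called without AKR naive replicate 2 (0.52, adjusted p = 0.0192), with upper-quartile factors (0.42, adjusted p = 0.0483), with no filter on low counts (0.41, adjusted p = 0.0291) and in a fit of all 14 libraries (0.41, adjusted p = 0.0408). Syt2 was called with no filter (0.20, adjusted p = 0.00066).

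After OFL the same 2 members were called. Pvalb was 1.40-fold higher in AKR than in B6N libraries (log2 difference 0.48, SE 0.085, adjusted p = 0.00044, edgeR quasi-likelihood test over 17994 genes). Kcnc1 was 1.22-fold higher (log2 difference 0.28, SE 0.066, adjusted p = 0.00489). They were 2 of the 6 members that passed the expression filter, which Gpr149 did not. Of all genes tested 16.4% were called, 7.50% higher in AKR and 8.86% lower. The median log2 difference was 0.16 over the 6 members and 0.0024 over all genes. Libraries of 3 members did not overlap (Pvalb and Kcnc1 higher in AKR, Pthlh lower), against 31.2% of all genes (16.3% higher and 14.9% lower).

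Of the remaining members, Pthlh had the largest difference after OFL, -0.60 on the log2 scale with an interval from -1.24 to 0.040 (adjusted p = 0.210). Kcns3 differed by 0.17 (-0.066 to 0.40), Syt2 by 0.15 (-0.19 to 0.50) and Tac1 by 0.045 (-0.24 to 0.33), none of them called. The Pvalb call held when any 1 OFL library was left out, with differences from 0.41 to 0.57. The Kcnc1 call was lost without B6N OFL replicate 2 (0.24, adjusted p = 0.0651).

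The 22 other genes of fast-spiking cells, among them ion channels, presynaptic proteins and transcription factors, were listed beside the members. In naive libraries 10 were higher in AKR, 0 were lower and 12 were not called, against 18.3% of all genes higher and 19.5% lower. The median log2 difference was 0.12, and 18 of the 22 were above 0. Of those below 0, Cox6a2 gave -0.27 (SE 0.116) and Tmem132c -0.20 (SE 0.097), neither called. The smallest p-values belonged to Slit2, an axon guidance ligand (0.51, SE 0.052, adjusted p = 6.97e-07), and Nefh, the heavy neurofilament subunit of large axons (0.39, SE 0.072, adjusted p = 0.00035). They were followed by Scn1a, the sodium channel Nav1.1 on which fast-spiking cells depend (0.31, SE 0.059), and Cplx1, a complexin that acts in vesicle fusion (0.22, SE 0.047). The others called included Scn8a, Vamp1, Ank1, Sox6 and Mef2c, with differences from 0.097 (Scn8a) to 0.30 (Ank1). Leaving out 1 library gave 8 to 13 higher genes and 0 or 1 lower, the 1 lower gene appearing without AKR naive replicate 4 or B6N naive replicate 2. Without B6N naive replicate 2 that gene was Tmem132c (-0.28).

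After OFL 7 of the 22 were higher in AKR and 0 lower, against 7.50% and 8.86% of all genes, with a median of 0.14. Cox6a2 had the largest difference of the list, -0.76 (SE 0.348), and Tmem132c gave -0.19 (SE 0.116), neither called. All 7 called genes, which included Scn8a, Nefh, Vamp1, Cplx1, Ank1 and Slit2, were among the 10 of the naive comparison. That is 100% of the OFL calls and 70% of the naive calls. The same shares over all genes were not computed, so the repeat is not shown to be particular to this list. The difference was 0.42 for Slit2 (SE 0.048) and 0.41 for Nefh (SE 0.091). Vamp1, a vesicle fusion protein of fast synapses, differed by 0.55 (SE 0.094) and Scn8a, the sodium channel Nav1.6, by 0.18 (SE 0.039). Without 1 library, 5 to 10 were higher and 0 to 2 lower, with 2 lower without B6N OFL replicate 1. DESeq2 called 9 naive and 5 OFL genes higher and 0 lower. Many of these genes are also expressed in other neurons, so the list is not specific to parvalbumin cells.

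**Figure D2:**
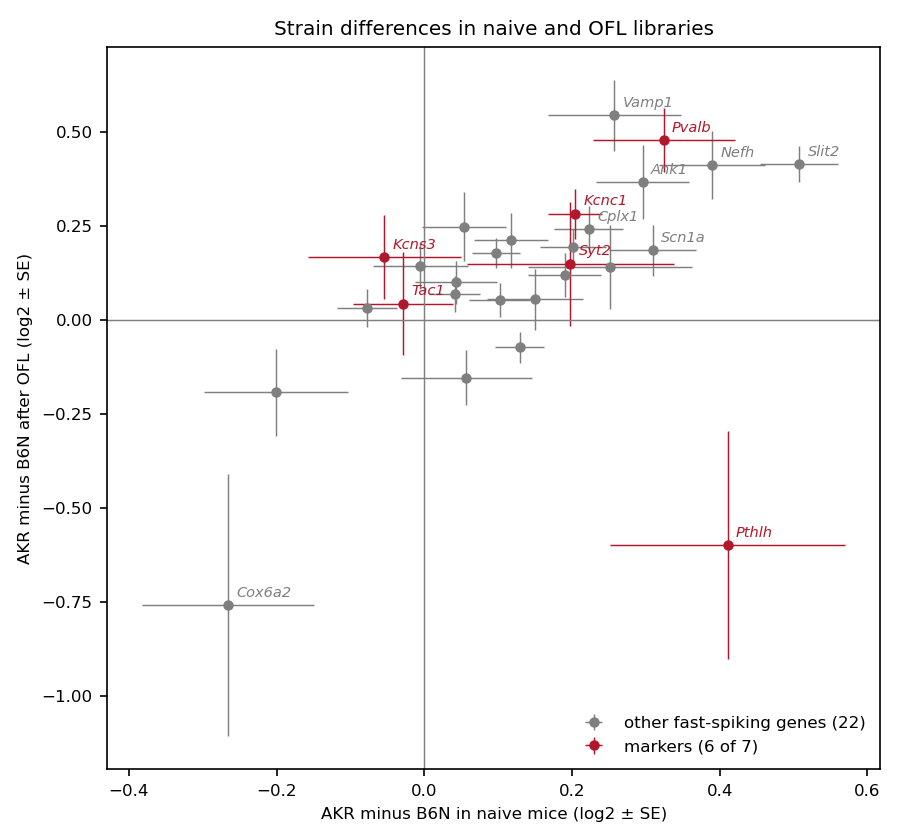
Log2 difference AKR minus B6N with its SE in naive (horizontal) and OFL libraries (vertical), for 6 of the 7 markers (red) and 22 other genes of fast-spiking cells (grey). In each condition 18 of the 22 grey points are above 0, Pvalb and Kcnc1 lie above 0 on both axes, and Pthlh lies at 0.41 in naive and -0.60 in OFL libraries.

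Chandelier cells are the parvalbumin interneurons that contact the axon initial segment. Of 5 chandelier genes, 3 were higher and 1 was lower in AKR naive libraries. For this and the following lists compared between strains, 18.3% of all genes were higher and 19.5% lower in naive libraries. The shares in OFL libraries were 7.50% and 8.86%. Cpne5 (0.24, SE 0.046), a calcium-binding copine, Unc5b (0.32, SE 0.069), a netrin receptor, and Vipr2 (0.89, SE 0.229), a receptor for vasoactive intestinal peptide, were higher, and Cntn4, a contactin, was lower (-0.22, SE 0.037). After OFL 4 were tested, as Vipr2 did not pass the expression filter, and 1 was called, Cpne5, at 0.37 (SE 0.058). The other 3 were below 0 and not called: Unc5b (-0.13), Nog (-0.21) and Cntn4 (-0.082). Mean levels in naive AKR and B6N libraries were 1.11 and 0.592 CPM for Vipr2 and 169 and 143 CPM for Cpne5. Those of Cntn4 were 60.0 and 70.1 CPM. Which cells of the bulk tissue express these genes was not tested, so the list is not shown to be specific to chandelier cells.

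Of 9 genes for the perineuronal net, 2 were higher and 3 lower in AKR naive libraries. The higher ones were Hapln4 (0.49, SE 0.047), a link protein of the net, and Bcan (0.16, SE 0.042), the proteoglycan brevican. Lower were Ncan (-0.43, SE 0.034), the proteoglycan neurocan, Tnr (-0.32, SE 0.038), the matrix protein tenascin R, and Vcan (-0.22, SE 0.081), the proteoglycan versican. After OFL, Hapln4 (0.46, SE 0.084) and Ptprz1, a receptor phosphatase (0.13, SE 0.042), were called higher and 0 were called lower. The change of the strain difference itself was called for Ncan (interaction 0.42, SE 0.058, adjusted p = 4.0e-05) and Tnr (0.40, SE 0.056, adjusted p = 3.9e-05). Bulk tissue does not show which cells express the net genes, so this list is not shown to be specific to parvalbumin cells either.

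Partners and relatives of the members were a further list of 15 genes, of which 14 were tested and Tacr3, a tachykinin receptor, was not. In naive libraries 4 were higher and 1 was lower in AKR. Pth1r, the receptor of the Pthlh peptide, was higher (0.43, SE 0.087, adjusted p = 0.00085), whereas Tacr1, the receptor of substance P, gave -0.091 (SE 0.164). Mme, the protease neprilysin that degrades substance P, was higher (0.26, SE 0.073), as was Kcns2 (0.23, SE 0.044), a close relative of Kcns3.

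After OFL 0 of the 14 were called, and the gene with the smallest p was Kcnb2, a Kv2 channel (-0.16, SE 0.058, adjusted p = 0.0677). DESeq2 also called 0, and the fit without a filter on low counts called 2 higher and 2 lower. The interaction of strain and condition was not called for Kcns3 (0.23, interval -0.10 to 0.57). Of the calcium-binding relatives of Pvalb, Calb1 gave 0.040 (SE 0.044) and Calb2 gave 0.022 (SE 0.077) in naive libraries.

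Other inhibitory genes were read as a reference for Pvalb. Of 9 genes that all GABA neurons share, 5 were higher in AKR naive libraries and 0 lower, with a median of 0.30. They included Slc32a1 (0.30, SE 0.059), the vesicular GABA transporter, and transcription factors such as Dlx2 (0.60, SE 0.104), Dlx5 and Dlx6. Gad1, the main GABA-synthesising enzyme, was not among them, with means of 353 ± 12.6 CPM for AKR and 331 ± 19.0 CPM for B6N (SD over 4 libraries each). After OFL, Slc32a1 (0.32, SE 0.073) and Gad2 (0.17, SE 0.047) were called higher and 0 lower. Of 8 somatostatin cell markers, 3 were higher and 1 was lower in naive libraries, the largest difference being 1.90 for Myh8, a myosin. Sst itself gave 0.080 (SE 0.037, adjusted p = 0.1) in naive and 0.17 (SE 0.056, adjusted p = 0.0473) in OFL libraries. After OFL 3 of the 7 somatostatin markers tested were higher and 0 lower: Sst, Myh8 (1.53, SE 0.242) and Crhbp, a binding protein of corticotropin-releasing hormone (0.54, SE 0.109).

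The lists of other cell types moved as follows between strains, and their part in the differences of the members was not tested. In naive libraries VIP cell markers gave 0 higher and 3 lower of 8, LAMP5 cell markers 0 and 1 of 6, excitatory markers 0 and 1 of 7, and striatal markers 0 and 3 of the 8 tested. Thalamic markers gave 1 and 1 of 6, astrocyte markers 1 and 2 of 6, oligodendrocyte markers 2 and 1 of 6, microglial markers 3 and 1 of 6, vessel markers 2 and 1 of 4, and choroid plexus markers 0 and 0 of 2. After OFL 0 of 8 VIP markers were higher and 1 lower, with 0 and 2 of 5 for LAMP5, 1 and 0 of 7 for excitatory, 0 and 1 of 6 for striatal and 0 and 0 of 6 for thalamic markers. Astrocyte markers then gave 1 and 2 of 6, oligodendrocyte markers 0 and 1 of 6, microglial markers 3 and 0 of 6, vessel markers 2 and 0 of 4, and the 1 choroid plexus marker tested was not called. Striatal projection neurons also express Tac1. The summed striatal markers were 167.8 to 193 CPM in AKR naive and 208 to 227 CPM in B6N naive libraries, while the Tac1 difference between strains was not called. Without B6N naive replicate 2, 5 of the 6 oligodendrocyte markers were higher in AKR naive libraries and 1 lower, with Mag, a myelin protein, at 0.38 (adjusted p = 4.5e-05). Counts then became 6 and 0 of 9 for shared GABA genes, where Gad1 was called higher (0.13, adjusted p = 0.0094), 2 and 1 of 8 for somatostatin, 1 and 1 of 6 for LAMP5, 0 and 1 of 6 for thalamic and 2 and 2 of 4 for vessel markers. Besides these and the fast-spiking list above, no list changed its naive counts.

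Syt2 and the summed oligodendrocyte markers, among them Mbp, Mog and Mag, shared some of their extreme libraries but not their full order. Among B6N naive libraries replicate 2 was highest in both, with 2071 CPM of oligodendrocyte markers and 64.7 CPM of Syt2, while replicate 4 had the lowest sum, 1448 CPM, and replicate 3 the lowest Syt2, 35.3 CPM. Among OFL libraries replicate 3 was lowest in both in each strain, with 974 CPM of oligodendrocyte markers in AKR and 1018 CPM in B6N. The summed markers were 1194, 1162 and 974 CPM in AKR OFL and 1502, 1240 and 1018 CPM in B6N OFL replicates 1 to 3. In AKR naive libraries replicate 2 had the highest sum, 1808 CPM, and the lowest Syt2, 45.2 CPM. Whether the oligodendrocyte content has a part in the spread of Syt2 was not tested.

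**Figure D3:**
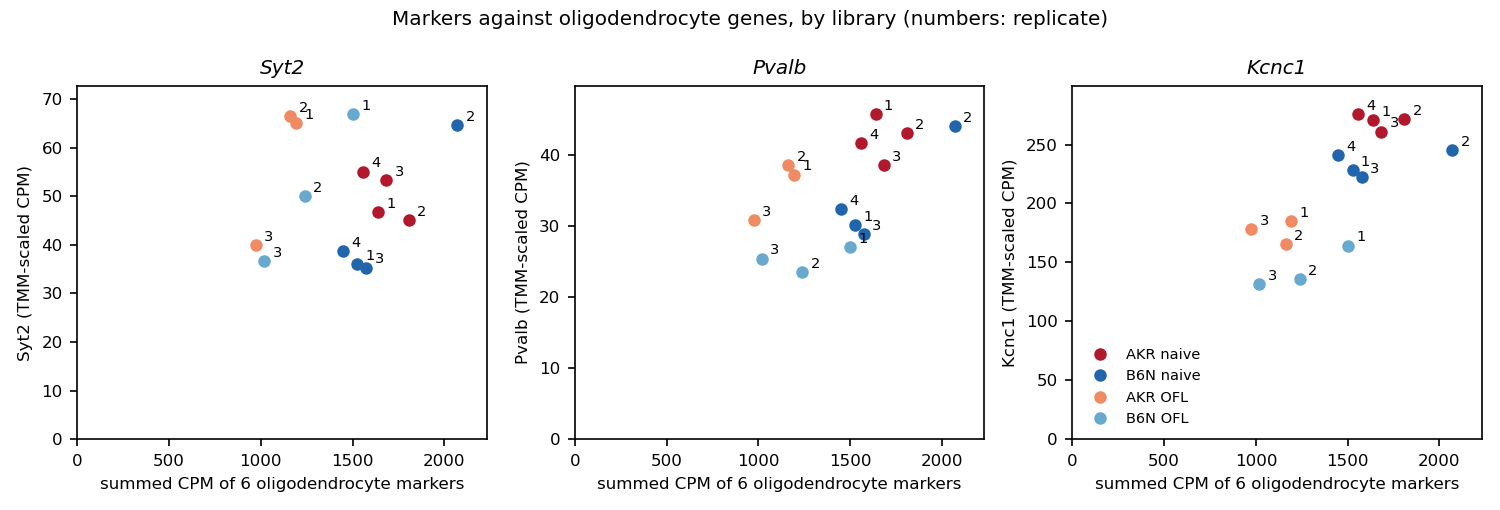
TMM-scaled CPM of Syt2, Pvalb and Kcnc1 (vertical axes) against the summed CPM of 6 oligodendrocyte markers (horizontal axes) in each of the 14 libraries, numbered by replicate and coloured by group. B6N naive replicate 2 lies farthest right at 2071 CPM and is the highest of its group in all 3 panels.

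The ratio of Pvalb to another inhibitory gene within a library does not depend on how libraries are scaled. Against Gad1 the ratio of counts was 0.120 ± 0.00776 in AKR and 0.102 ± 0.0146 in B6N naive libraries, with B6N replicate 2 at 0.123 inside the AKR range. After OFL it was 0.124 ± 0.00879 and 0.0955 ± 0.00770, and the strains did not overlap. The log2 difference was 0.25 in naive libraries (exact two-sided permutation p = 0.114) and 0.37 after OFL (exact permutation p = 0.1, the smallest that 3 against 3 libraries allow). Against Sst, the ratio was 0.258 ± 0.0141 and 0.218 ± 0.0425 in naive AKR and B6N, and 0.531 ± 0.0835 and 0.426 ± 0.0331 after OFL. The strains overlapped in both conditions. B6N naive replicate 2, at 0.280, was above the AKR naive maximum of 0.279. In OFL libraries the AKR minimum was 0.437 and the B6N maximum 0.459. The log2 differences against Sst were 0.26 in naive (exact permutation p = 0.143) and 0.31 in OFL libraries (exact permutation p = 0.2). Over the family of 4 tests the adjusted p was 0.1905 to 0.2, and no ratio passed. With 4 against 4 naive libraries the smallest possible p is 0.0286.

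Without B6N naive replicate 2, both naive ratios reached the smallest p that 4 against 3 libraries allow, with log2 differences of 0.34 against Gad1 and 0.39 against Sst (exact permutation p = 0.0286 for each). Over all libraries left out in turn, the exact p ranged from 0.0286 to 0.2 against Gad1 and from 0.0286 to 0.229 against Sst. The Pvalb to Sst ratio was 0.393 to 0.595 in the 6 OFL libraries and 0.187 to 0.280 in the 8 naive libraries, a difference that was not tested. Sst was 164 and 155 CPM in naive AKR and B6N and 67.2 and 59.5 CPM after OFL.

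**Figure D4:**
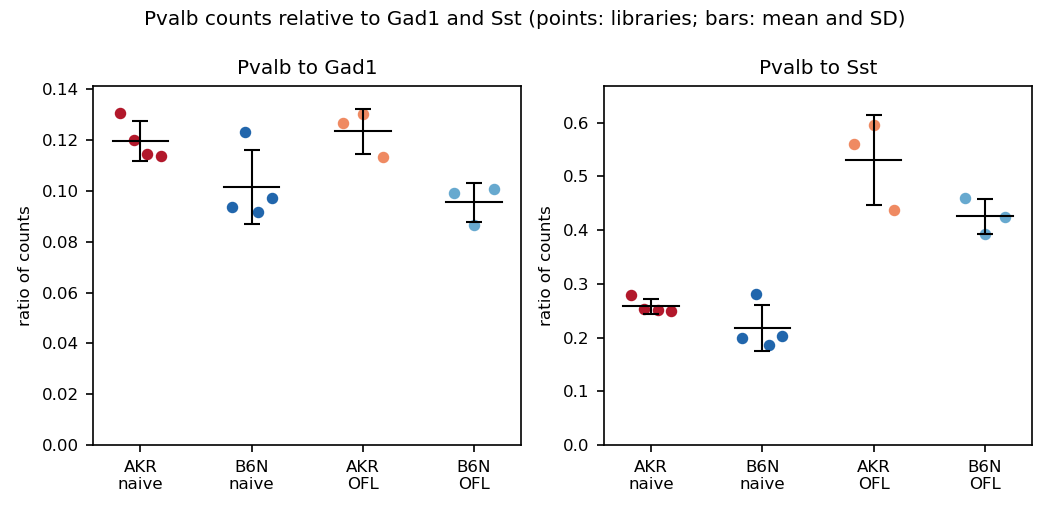
Ratio of Pvalb counts to Gad1 counts (left) and to Sst counts (right) in each library, with the mean and SD of each group, on axes from 0. Against Gad1 the OFL libraries of AKR (mean 0.124) all lie above those of B6N (mean 0.0955), and against Sst both OFL groups lie above the naive groups.

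OFL and naive libraries were compared within each strain in 1 fit of all 14 libraries. These comparisons carry the deposited set with the condition, as said above, and 78.7% of 20291 genes were called in AKR and 78.4% in B6N. In both strains 4 of the 7 members, Pvalb, Kcnc1, Pthlh and Tac1, were lower after OFL and 0 were higher. Among all genes 38.8% were lower and 39.8% higher in AKR, and 38.4% and 40.0% in B6N, and a share of 4 in 7 is not above the 78.7% and 78.4% called in either direction. The median log2 difference of the members was -0.38 in AKR and -0.42 in B6N, against -0.0070 and -0.0019 over all genes. The libraries of the same 4 members did not overlap between conditions in either strain, against 76.7% of all genes in each (38.9% higher and 37.8% lower in AKR, 39.2% and 37.4% in B6N).

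Pthlh had the largest differences, -2.02 (SE 0.243, adjusted p = 2.7e-08) in AKR and -1.02 (SE 0.227, adjusted p = 0.00023) in B6N on the log2 scale, which are levels of 0.247 and 0.494 of the naive ones. Kcnc1 was lower by similar amounts in both strains, -0.61 (SE 0.056, adjusted p = 1.5e-10) and -0.70 (SE 0.057, adjusted p = 1.2e-11). Tac1 gave -0.38 (SE 0.102, adjusted p = 0.00149) and -0.46 (SE 0.102, adjusted p = 0.00018). Pvalb gave -0.25 (SE 0.103, adjusted p = 0.028) in AKR and -0.42 (SE 0.109, adjusted p = 0.00115) in B6N. The 3 members not called were Syt2, Kcns3 and Gpr149. Syt2 gave 0.19 (interval -0.17 to 0.56) in AKR and 0.23 (-0.14 to 0.60) in B6N. Kcns3 gave 0.099 (-0.14 to 0.33) and -0.13 (-0.37 to 0.10), and Gpr149 -0.63 (-1.26 to -0.0029) and -0.24 (-0.85 to 0.38). The AKR interval of Gpr149 leaves out 0, but the edgeR quasi-likelihood test gave an unadjusted p of 0.0609 (adjusted p = 0.0754).

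The call for Pvalb in AKR was not stable. It was lost with relative log expression factors (-0.21, adjusted p = 0.0584), upper-quartile factors (-0.20, adjusted p = 0.0778) and DESeq2 (-0.21, adjusted p = 0.164). Leaving out a library also ended it in 3 cases: AKR naive replicate 1 (-0.21, adjusted p = 0.0812), AKR naive replicate 2 (-0.24, adjusted p = 0.0526) and AKR OFL replicate 3 (-0.16, adjusted p = 0.197). When the fit was limited to protein-coding genes free of opposite-strand overlap and scaled on them, Pvalb gave -0.074 (adjusted p = 0.553) and Tac1 gave -0.20 (adjusted p = 0.0833) in AKR, while Kcns3 was called higher there (0.28, adjusted p = 0.0397). In B6N the Pvalb call held, at -0.27 (adjusted p = 0.0436) in that protein-coding fit and -0.27 (adjusted p = 0.0037) without B6N naive replicate 2. Syt2 was called higher after OFL in B6N without B6N naive replicate 2 (0.48, adjusted p = 0.0040) or B6N OFL replicate 3 (0.42, adjusted p = 0.038), and in AKR without AKR OFL replicate 3 (0.40, adjusted p = 0.0463). With no filter on low counts Syt2 was called in both strains (0.16, adjusted p = 0.0114, and 0.19, adjusted p = 0.0026). Gpr149 was called lower in AKR without AKR naive replicate 4 (-0.73, adjusted p = 0.0448) or AKR OFL replicate 3 (-0.92, adjusted p = 0.0349).

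Among the 22 other fast-spiking genes, 11 were higher and 8 lower after OFL in each strain, with medians of 0.22 in AKR and 0.19 in B6N. Erbb4, a neuregulin receptor of interneurons, was higher (1.03, SE 0.044, in AKR and 1.07, SE 0.044, in B6N), as was Slit2 (0.99, SE 0.049, and 1.07, SE 0.051). Kcna1, the axonal potassium channel Kv1.1, was also higher (0.96, SE 0.060, and 0.89, SE 0.061). Cplx1 was lower (-1.54, SE 0.061, and -1.57, SE 0.062). All 9 shared GABA genes were lower after OFL in both strains, with medians of -1.37 and -1.23, led by Dlx1 (-1.45, SE 0.075) and Slc32a1 (-1.37, SE 0.071) in AKR. Under every scaling tried all tested genes of this list remained lower, with 6 of the 9 left in the protein-coding fit.

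Of the partners 3 were higher and 7 lower of 14 in each strain. Kcnb2 was higher (1.46, SE 0.059, in AKR and 1.54, SE 0.058, in B6N), and Kcnc4, another Kv3 channel, was lower (-1.20, SE 0.058, and -1.13, SE 0.058). Pth1r was lower in both strains (-0.98, SE 0.131, and -0.91, SE 0.142), as its ligand gene Pthlh was. Perineuronal net genes gave 5 higher and 4 lower of 9 in AKR and 4 and 4 in B6N, with medians of 0.17 and 0.088. Lower were Bcan, at -0.94 (SE 0.050) and -0.87 (SE 0.050), and Hapln4, at -1.23 (SE 0.071) and -1.20 (SE 0.074). Among the higher genes were Ncan, at 0.62 (SE 0.041) and 0.20 (SE 0.041), and Vcan, at 0.83 (SE 0.080) and 0.57 (SE 0.078). Chandelier genes gave 1 higher and 3 lower of 5 in AKR and 1 and 2 in B6N, with Cpne5 at -0.60 (SE 0.055) and -0.73 (SE 0.056) and Cntn4 at 0.71 (SE 0.043) and 0.56 (SE 0.042).

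Markers of other cell types also differed between the sets, and their part in the members' differences was not tested. The summed excitatory markers were 4598 to 5141 CPM in naive and 2134 to 2436 CPM in OFL libraries, and the summed oligodendrocyte markers 1448 to 2071 and 974 to 1502 CPM. Astrocyte markers summed to 2980 to 3660 CPM in naive and 3956 to 4754 CPM in OFL libraries. The striatal markers, relevant to Tac1, summed to 205 to 216 CPM in AKR and 196 to 213 CPM in B6N OFL libraries. Lists of other cell types gave these counts of higher and lower genes in AKR: 1 and 4 of 8 somatostatin, 0 and 7 of 8 VIP, 2 and 4 of 6 LAMP5, 0 and 5 of 7 excitatory, 2 and 5 of 8 striatal, 2 and 2 of 6 thalamic and 1 and 3 of 6 astrocyte markers. Oligodendrocyte markers gave 0 and 5 of 6, microglial markers 1 and 5 of 6, vessel markers 0 and 2 of 4 and choroid plexus markers 0 and 2 of 2. In B6N the counts were 1 and 4, 0 and 7, 2 and 4, 0 and 6, 2 and 4, 2 and 2, 2 and 4, 1 and 3, 1 and 3, 1 and 3, and 0 and 1 in the same order. Without B6N naive replicate 2, the net genes gave 3 higher and 3 lower in B6N and the choroid plexus markers 0 and 2, and no other list changed its counts there.

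The interaction asked whether the difference between OFL and naive libraries depended on strain, and condition and deposited set are common to both strains here. By edgeR 0 of the 7 members were called, against 5.15% of 20291 genes (3.61% positive and 1.54% negative), and 1 had an unadjusted p under 0.05. DESeq2 also called 0. That 1 was Pthlh, whose difference was more negative in AKR (log2 interaction -1.0, interval -1.75 to -0.25, unadjusted p = 0.0106, adjusted p = 0.122). Leaving out each library in turn gave adjusted p-values of 0.0714 to 0.283 for Pthlh. For Pvalb the interaction was 0.17 (-0.14 to 0.47, adjusted p = 0.636) and for Kcnc1 0.089 (-0.074 to 0.25, adjusted p = 0.629). Intervals were also wide for Syt2 (-0.038, -0.55 to 0.48), Tac1 (0.083, -0.22 to 0.38) and Gpr149 (-0.39, -1.29 to 0.50). The strain differences of Pvalb, 0.32 in naive and 0.48 in OFL libraries, were not shown to differ from each other. Among the lists, the interaction was called for 1 of 22 fast-spiking genes, Mef2c, a transcription factor (-0.19, SE 0.053), and for 1 of 9 shared GABA genes, Dlx1 (0.38, SE 0.111). Besides Ncan and Tnr above, genes of other lists were called, among them Id2 of the LAMP5 markers (-0.43, SE 0.072), Pde10a of the striatal (0.55, SE 0.101), Prkcd of the thalamic (0.62, SE 0.143) and Opalin of the oligodendrocyte markers (-1.12, SE 0.247). The chandelier, somatostatin, VIP, excitatory, astrocyte, microglial, vessel and choroid plexus lists had 0 called. Without B6N naive replicate 2, 3 of 6 oligodendrocyte markers had a negative interaction called, and 1 gene each was called of the chandelier (Unc5b, -0.51, adjusted p = 0.0217), somatostatin (Nos1, 0.44, adjusted p = 0.0058) and vessel lists (Flt1, 0.26, adjusted p = 0.0393).

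**Figure D5:**
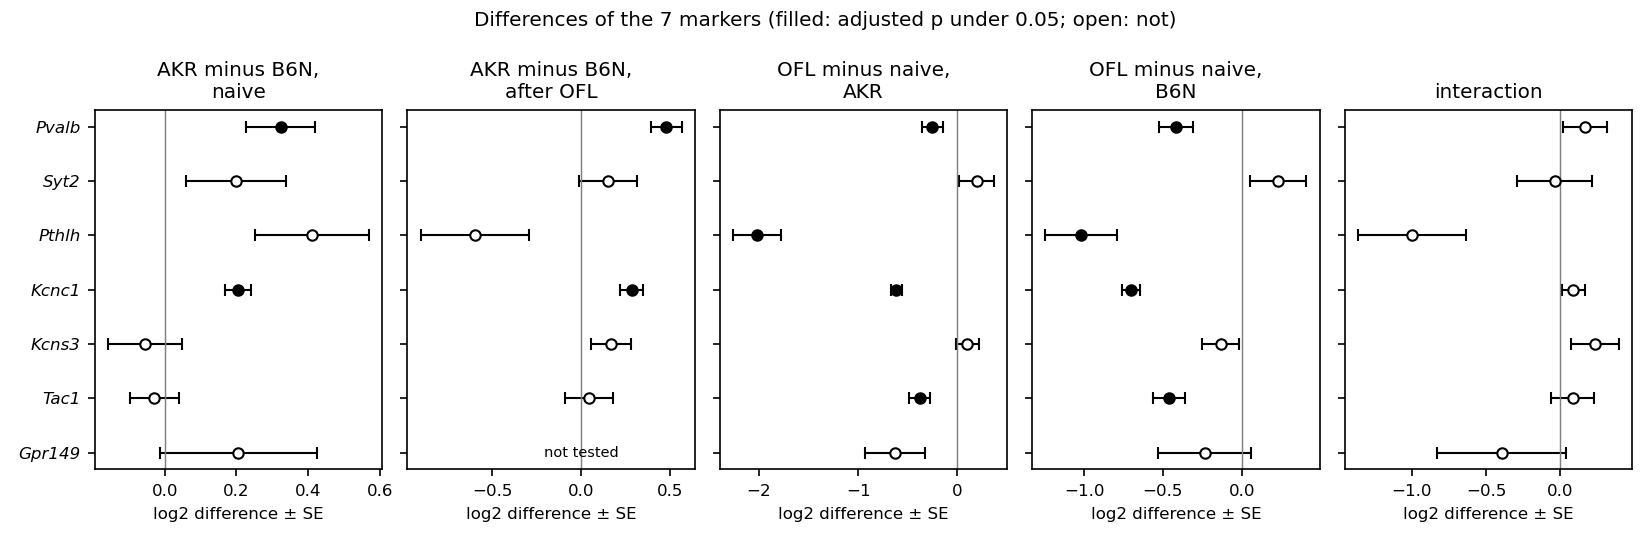
Log2 difference (horizontal axes) with its SE for each marker in the 5 comparisons, with filled symbols for an adjusted p under 0.05 and open symbols otherwise. Pvalb and Kcnc1 are filled in both strain comparisons, 4 markers are filled in each OFL minus naive comparison, and none is filled for the interaction.

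The genes with the most similar pattern to Pvalb were sought among 11439 named genes whose mean reached 5 CPM, by the root mean square distance between log2 levels centred over the 14 libraries. The nearest was Nefh, at a distance of 0.119, with means of 86.0 and 65.7 CPM in naive AKR and B6N and 63.4 and 47.4 CPM after OFL. Next came Tspan9, a tetraspanin (0.124), Kcnn1, a calcium-activated potassium channel (0.135), Rassf4 (0.138) and Gls2, a glutaminase (0.140). Tspan9 was at 49.0 and 37.3 CPM in naive and 37.1 and 29.5 CPM in OFL libraries, again highest in naive AKR and lowest in B6N after OFL. Of the members, Kcnc1 ranked 677 (0.233), Tac1 ranked 2378 (0.282), Kcns3 ranked 2900 (0.294) and Syt2 ranked 5210 (0.356). Pthlh and Gpr149 were below the minimum level. The distances are a description of 14 libraries that share scaling, strain and condition, and carry no test.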

How the data were processed

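Libraries were made from total RNA with a TruSeq kit, per the labels' protocols. The authors deposited raw counts per Ensembl gene in 2 tables, naive and OFL. Alignment to GRCm38 and counting involved TopHat2 2.1.1 and HTSeq, with cutadapt 2.7, CASAVA and edgeR also listed, per the submitters' processing notes. The strand setting and annotation release are not given in the sources used here. The deposited per-sample CPM files were not used. Gene names, positions and exonic lengths came from GENCODE for GRCm38, which named 53274 of 53465 identifiers (191 were kept without a name).

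Counts were tested with edgeR 4.0.16 (R 4.3.3, limma 3.58.1): expression filter by group, TMM scaling, quasi-likelihood F-test, two-sided, Benjamini-Hochberg adjustment over all genes tested, called under an adjusted p of 0.05. Naive (8 libraries) and OFL (6) strain differences were fitted separately, and the other comparisons in 1 fit of 14. The common biological coefficient of variation was 0.0446, 0.0456 and 0.0450. Intervals are at 95% and come from the log2 difference and the F statistic. For Gpr149, with few reads, they can be narrower than the p-value of the test implies. DESeq2 1.42.0, other scalings and filters, a replicate block and leaving out each library were alternatives. The fits were tested on simulated data.

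The members, the 16 lists beside them and the rule for named genes (all members, and up to 4 called genes with the smallest p per list, or the 1 with the smallest p where none was called) were chosen with earlier results of these data known. Further list genes in the text were named after their values were seen. List counts under the alternatives were added after seeing the data. Beyond the members, ratios and fast-spiking genes, lists were refitted without 1 library only, B6N naive replicate 2. Promoter sequences are from RefSeq (GRCm38.p6), matched by symbol for 6 of 7 members. Some list genes are counted with their lists but not reported here by name.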

Additional observations from a re-analysis of the deposited data

Results flagged for a closer look

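Among 18 groups of 4 libraries checked (7 markers and 2 ratios in each naive group), 4 held a library beyond Dixon's critical value, where chance gives about 1 in 20 groups. Syt2 in B6N naive replicate 2, at 64.7 CPM, lay far above the other 3 libraries of its group. The Pvalb to Gad1 ratio of the same library, 0.123, was far above the 0.0919 to 0.0972 of the others, and its oligodendrocyte markers were also highest. Gpr149 in AKR naive replicate 4, at 0.649 CPM, lay below the other 3, on 15 reads. The Pvalb to Sst ratio of AKR naive replicate 1, 0.279, lay above 0.249 to 0.252 in the others.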

How the results depend on the processing

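In naive libraries DESeq2 called 1 member and the fit without a filter 4, and leaving out 1 library gave 1 to 4. After OFL leaving out 1 library gave 1 to 2 called members and 1934 to 3514 called genes, with 1934 without B6N OFL replicate 2. The protein-coding fit, with 10415 genes tested, called 7727 genes in AKR and 7778 in B6N between OFL and naive libraries. It raised the share of interaction calls that were higher from 70.1% to 80.3%. The naive log2 ratios ranged from 0.195 to 0.391 (Pvalb to Sst) and from 0.202 to 0.343 (Pvalb to Gad1) when 1 library was left out, and those after OFL from 0.220 to 0.444 and from 0.303 to 0.431.

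Signs turned for members that were not called. In naive libraries Kcns3 ranged from -0.11 to 0.030 when 1 library was left out, turning to 0.014 without AKR naive replicate 1 and 0.030 without B6N naive replicate 2. Tac1 ranged from -0.057 to 0.0016, turning without B6N naive replicate 3. After OFL Tac1 turned to -0.029 without AKR OFL replicate 2 and -0.10 without B6N OFL replicate 1, and Syt2 ranged from -0.035 (without B6N OFL replicate 3) to 0.39. For OFL minus naive in B6N, Kcns3 gave 0.017 in the protein-coding fit and Syt2 gave -0.013 without B6N OFL replicate 1. The interaction of Syt2 ranged from -0.29 to 0.20, turning to 0.013 without AKR naive replicate 4, 0.048 without B6N naive replicate 1 or 3, 0.016 without B6N naive replicate 4, 0.17 without AKR OFL replicate 3 and 0.20 without B6N OFL replicate 1, and that of Tac1 ranged from -0.061 (without B6N OFL replicate 1) to 0.23. The cause of these turns was not tested.

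Same-numbered libraries did not deviate together over genes (correlations of -0.0694 to 0.0604, none over 0.1). Counting error of genes with low counts lowers such correlations, so the check could not exclude that the numbers pair libraries. With the replicate block, 6229, 3021, 15766, 15722 and 1013 genes were called in the 5 comparisons, and Pvalb gave 0.33 in naive and 0.48 in OFL libraries. It changed no call of a member. The paired ratios gave an exact sign-flip p of 0.25. With 3 OFL pairs that is the smallest p possible, so the paired OFL test could not pass. Low counts limit Pthlh and Gpr149 after OFL.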
